A study of Mus musculus with 6 samples.

Results

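The genes described here are 10 liver genes that respond to Wnt signalling or mark the hepatocytes around the central vein, namely *Glul*, *Oat*, *Slc1a2*, *Rhbg*, *Axin2*, *Lgr5*, *Tbx3*, *Nkd1*, *Rnf43* and *Znrf3*. They were chosen by name as a set, 10 of the 45777 genes in the table. All 10 passed the filter on low counts and were among the 18636 genes tested. Liver RNA was compared between 3 WT mice, which carried *Pak4* flox/flox without Cre, and 3 LKO mice, which carried *Pak4* flox/flox and Alb-Cre. All 6 mice were C57BL/6 males, 8 weeks old, and had been fasted for 24 h. Cre made from the albumin promoter deletes the floxed segment of *Pak4*, a serine/threonine kinase gene, in hepatocytes, so other liver cells keep the gene. One library was sequenced per mouse, and mice of the same genotype served as replicates.

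Wnt proteins bind Frizzled receptors with LRP co-receptors and thereby stop the destruction complex from degrading beta-catenin, which then enters the nucleus and works with TCF/LEF factors on target genes. R-spondins strengthen the signal by removing the ubiquitin ligases RNF43 and ZNRF3, which otherwise clear Frizzled from the cell surface. In the liver, endothelial cells of the central vein supply WNT2, WNT9B and RSPO3, and the hepatocytes around that vein express glutamine synthetase and other pericentral genes, whereas periportal hepatocytes carry the urea cycle and amino acid breakdown.

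The total counts were 45934632 to 55205564 in the WT mice and 53936281 to 59576437 in the LKO mice. *Pak4* itself had 268, 210 and 271 counts in the WT mice and 85, 52 and 149 in the LKO mice. On the log2 scale LKO differed from WT by −0.71 ± 0.31 (the second value is the standard error here and for every log2 fold change below, adjusted p = 0.10 by edgeR's quasi-likelihood test). The count covers the whole gene, also outside the floxed segment. LKO mouse 3 had the highest *Pak4* count of its group, and at 3.22 CPM it lay within the WT range under TMM, while without that library the log2 fold change was −1.08 (adjusted p = 0.015). Scaling matters for every value below. TMM, a scaling that centres the genes between libraries, gave factors of 1.28 to 1.43 in WT and 0.639 to 0.816 in the LKO mice. The median log2 fold change over all genes tested was −0.04 with TMM, −0.90 with total counts and −0.79 on the log2(TPM + 1) scale. Values are given as CPM after TMM, that is, counts set to equal library sizes, unless another unit is named.

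The markers of other liver cells also moved with genotype under TMM. The summed CPM of 10 endothelial markers was 296 to 343 in WT and 507 to 540 in the LKO mice, that of 8 stellate cell markers 310 to 368 and 680 to 992, and that of 8 Kupffer cell markers 274 to 414 and 445 to 865. The 9 hepatocyte markers in the table summed to 48600 to 52200 CPM among WT and 108000 to 132000 in the LKO mice, and 4 of them rose and 3 fell. The 4 cholangiocyte markers tested summed to 32.9 to 50.1 and 13.4 to 29.9 CPM. *Krt7* and *Cftr*, with 14 counts or fewer in every mouse, were not tested and are not in these sums. *Spp1* alone was at 30.5 to 48.1 CPM in WT and 11.7 to 26.5 CPM in the LKO mice, and it fell (log2 fold change −1.09). The other 3 did not pass the test, with *Krt19* at 1.00, *Sox9* at 0.11 and *Epcam* at 0.05. The 5 erythroid markers summed to 192 to 324 and 879 to 1630 CPM, and the 8 lymphocyte and neutrophil markers tested to 4.44 to 10.8 and 15.4 to 27.9 CPM. Several of these sums hold markers called in opposite directions by the quasi-likelihood test. Of the stellate cell markers, 3 rose and *Col3a1* fell (log2 fold change −1.85). Of the Kupffer cell markers, 4 rose and *Cd68* fell (−1.29), and of the erythroid markers 2 rose and *Alas2* fell (−1.37). The neutrophil genes *S100a8* and *S100a9* rose, whereas the lymphocyte genes *Cd8a* (−2.69) and *Nkg7* (−3.37) fell. With total counts, the endothelial sums overlapped, at 380 to 488 in WT and 324 to 426 in the LKO mice. So did the Kupffer cell sums, at 352 to 565 and 363 to 552. The stellate cell sums did not overlap, at 398 to 525 in WT and 555 to 642 in the LKO mice. In whole liver RNA, fewer cells of a type and less RNA per cell cannot be told apart. The part of these markers in the results was not tested.

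On GRCm38.p6, the assembly behind the authors' mm10 build, *Glul* lies at chr1:153899929-153909723, *Oat* at chr7:132557475-132576398, *Slc1a2* at chr2:102658239-102790784 and *Rhbg* at chr3:88242874-88254739. *Axin2* lies at chr11:108917828-108950783, *Nkd1* at chr8:88521342-88594887, *Tbx3* at chr5:119670534-119684724 and *Lgr5* at chr10:115450314-115587780. *Rnf43* at chr11:87663087-87735539 and *Znrf3* at chr11:5276329-5444847 share a chromosome but are far apart. RefSeq promoter windows were found for 6 of the 10 genes. The 250 bases before the start site are shown for the 3 genes that passed the test, read 5′ to 3′ on the strand of the gene. Capitals mark a match to 1 of 4 TCF/LEF words, searched on both strands. The first word was CTTTGAA, the second word was CTTTGAT, the third word was CTTTGTA and the fourth word was CTTTGTT. The *Oat* window is chr7:132576399-132576648 on the minus strand and ends at the 5′ end of the gene. The *Slc1a2* window, chr2:102706188-102706437 on the plus strand, belongs to a start site 48199 bases inside the annotated gene. The *Nkd1* window, chr8:88527383-88527632 on the plus strand, belongs to a start site 6291 bases inside the gene.
Oat: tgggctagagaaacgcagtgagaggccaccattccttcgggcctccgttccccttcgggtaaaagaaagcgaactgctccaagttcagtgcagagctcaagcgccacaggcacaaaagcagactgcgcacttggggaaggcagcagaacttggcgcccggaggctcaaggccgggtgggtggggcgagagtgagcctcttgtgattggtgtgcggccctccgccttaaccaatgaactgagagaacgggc
Slc1a2: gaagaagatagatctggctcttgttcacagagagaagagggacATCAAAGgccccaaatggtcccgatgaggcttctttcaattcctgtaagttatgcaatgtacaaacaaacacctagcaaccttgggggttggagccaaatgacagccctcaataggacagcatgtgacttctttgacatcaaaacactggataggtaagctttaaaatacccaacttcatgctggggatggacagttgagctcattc
Nkd1: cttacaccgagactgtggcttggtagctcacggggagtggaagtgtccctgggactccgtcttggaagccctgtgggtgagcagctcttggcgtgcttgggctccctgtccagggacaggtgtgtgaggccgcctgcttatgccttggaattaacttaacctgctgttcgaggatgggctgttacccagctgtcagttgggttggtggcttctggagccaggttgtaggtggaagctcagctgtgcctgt
The 1 match, ATCAAAG in *Slc1a2* (the second word on the opposite strand), begins 207 bases before its start site. The *Oat* and *Nkd1* windows held none of these words, and neither did those of *Glul*, *Axin2* and *Rnf43*, so that 1 of 7 windows had a match. Over all 32851 RefSeq windows of this length, 14.8% did. The *Oat* and *Slc1a2* windows also differed in base composition, with 60.0% and 44.8% G or C against a median of 52.4% over all windows.

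Levels of different genes were compared as TPM, which takes gene length into account. In WT mice *Oat* was the most abundant of the 10 genes at 284 ± 74.2 TPM (mean ± SD, n = 3), followed by *Glul* at 193 ± 44.3, and the ranges of these neighbours overlapped. *Slc1a2* at 25.2 ± 2.55 and *Rhbg* at 6.05 ± 2.01 TPM came next, each apart from its neighbours. *Rnf43* at 2.99 ± 1.37, *Znrf3* at 1.80 ± 0.457 and *Tbx3* at 1.32 ± 0.367 TPM followed, and each overlapped the next. *Lgr5* at 0.682 ± 0.330, *Axin2* at 0.514 ± 0.136 and *Nkd1* at 0.454 ± 0.118 TPM were lowest, again with overlap between neighbours. The ranges of *Rhbg*, at 4.21 to 8.19 TPM, and *Rnf43*, at 1.42 to 3.97 TPM, nearly met. In LKO mice *Oat* at 447 ± 22.3 TPM no longer overlapped *Glul* at 91.3 ± 14.4 TPM. *Rnf43* at 0.559 ± 0.259 TPM ranked behind *Znrf3* at 0.629 ± 0.196 and *Tbx3* at 0.567 ± 0.207 TPM in the LKO mice, within overlapping ranges.

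Of the 10 genes, 3 rose in LKO liver, namely *Oat*, *Slc1a2* and *Nkd1*, and 0 fell (edgeR's quasi-likelihood test with TMM, adjusted p under 0.05). Over all genes tested, 40.1% passed this test, 19.6% as higher and 20.5% as lower. The 3 of 10 called in either direction was thus below the share of all genes. Taken by direction, 3 of 10 higher was above that share and 0 of 10 lower was below it. With only 10 genes these differences are small in number, and they were not tested. DESeq2 and edgeR's exactTest also called 0 of the 10 lower. At an unadjusted p under 0.05, the quasi-likelihood test also gave 0 lower. The median log2 fold change of the 10 genes was 0.49, against −0.04 over all genes tested. The CPM of WT and LKO mice did not overlap for 4 of the 10 genes, against 54.0% of all genes tested.

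**Figure D1:**
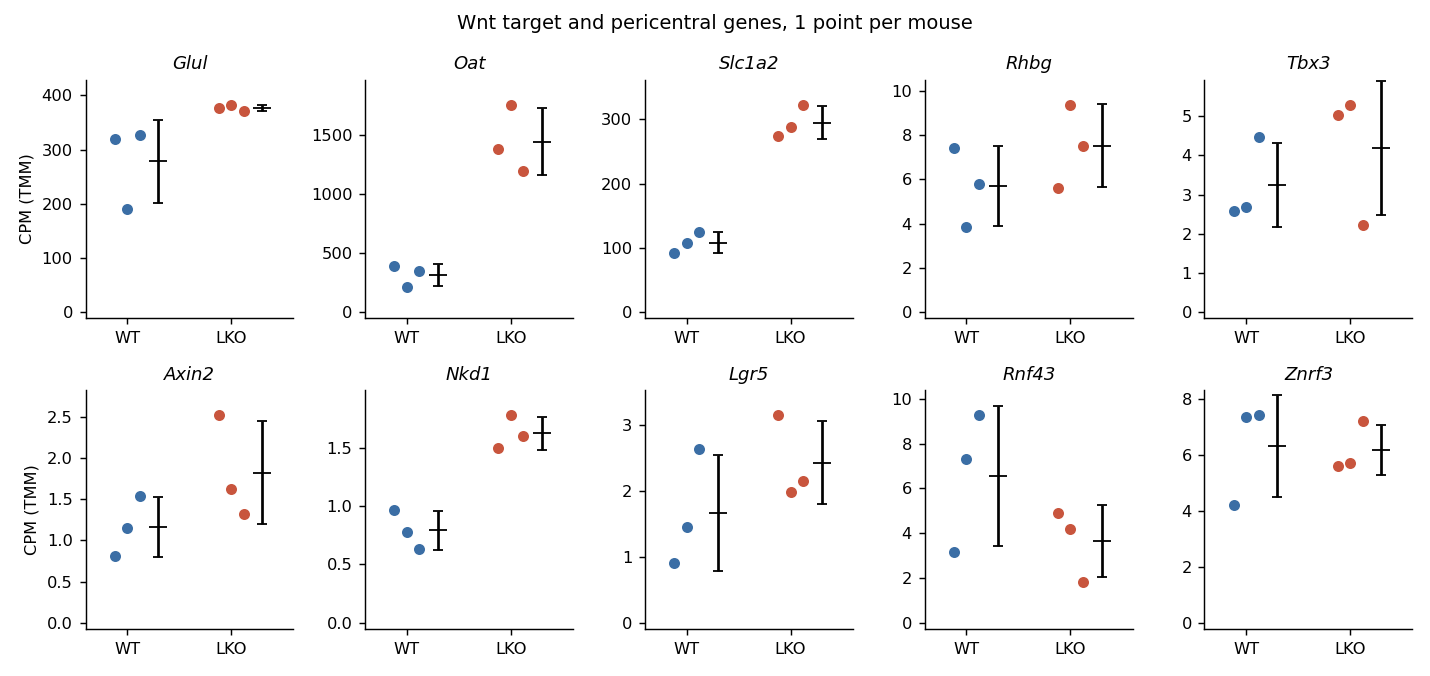
CPM after TMM (y axis, from 0) of each of the 10 genes in WT and LKO mice. Points are mice, and the bar beside them is the mean ± SD (n = 3). *Oat*, *Slc1a2*, *Glul* and *Nkd1* show no overlap between genotypes, whereas the other 6 genes do.

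*Glul* encodes glutamine synthetase, which fixes ammonia in the innermost ring of pericentral hepatocytes. It was at 319, 190 and 326 CPM in the WT mice and at 377, 383 and 372 CPM in the LKO mice. All LKO values lay above the WT values, but WT mouse 2 was far below the other WT mice. The rise was 1.36-fold (95% confidence interval 0.952 to 1.93) and did not pass the test (log2 fold change 0.44 ± 0.22, adjusted p = 0.15).

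*Oat* encodes ornithine aminotransferase, which feeds ornithine into glutamate in the same cells. It was at 389, 211 and 344 CPM in the WT mice and at 1380, 1760 and 1200 CPM in the LKO mice. Every LKO mouse lay far above every WT mouse. *Oat* rose 4.61-fold (95% confidence interval 2.95 to 7.20), with a log2 fold change of 2.20 ± 0.28 (adjusted p = 0.00073).

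*Slc1a2* encodes a glutamate transporter found on pericentral hepatocytes. It was at 91.7, 108 and 125 CPM in the WT mice and at 274, 288 and 323 CPM in the LKO mice. The groups were separated by a wide gap, and the mice within each group were close together. *Slc1a2* rose 2.73-fold (95% confidence interval 2.08 to 3.58), with a log2 fold change of 1.45 ± 0.17 (adjusted p = 0.00057).

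*Rhbg* encodes an ammonia channel of the pericentral zone. It was at 7.44, 3.84 and 5.81 CPM in the WT mice and at 5.63, 9.38 and 7.53 CPM in the LKO mice. The groups overlapped, and WT mouse 2 was again the lowest. The log2 fold change of 0.40 ± 0.29 did not pass the test (adjusted p = 0.30).

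The remaining genes act in the pathway or report on it. *Axin2*, a scaffold of the destruction complex and a widely used readout of Wnt signalling, was at 0.805, 1.15 and 1.54 CPM in the WT mice and at 2.52, 1.63 and 1.32 CPM in the LKO mice. WT mouse 3 lay above LKO mouse 3, so the groups overlapped. Its log2 fold change was 0.65 ± 0.36 (adjusted p = 0.19). The gene had 57 to 111 counts per library, and the 95% confidence interval of the fold, 0.884 to 2.79, includes both a small fall and a large rise.

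*Nkd1* encodes an inhibitor that acts on dishevelled and is itself induced by Wnt signals. It was at 0.966, 0.779 and 0.635 CPM in the WT mice and at 1.5, 1.78 and 1.6 CPM in the LKO mice. The groups did not overlap, although the counts were low, at 42 to 74 per library. *Nkd1* rose 2.04-fold (95% confidence interval 1.29 to 3.23), with a log2 fold change of 1.03 ± 0.29 (adjusted p = 0.022). The call was lost without WT mouse 2 (adjusted p = 0.070), WT mouse 3 (0.082) or LKO mouse 2 (0.061).

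*Lgr5*, a receptor for R-spondins, was at 0.899, 1.45 and 2.63 CPM in the WT mice and at 3.14, 1.98 and 2.14 CPM in the LKO mice. WT mouse 3 lay above LKO mice 2 and 3. The log2 fold change was 0.55 ± 0.41 (adjusted p = 0.32). *Tbx3*, a T-box transcription factor, was at 2.58, 2.69 and 4.48 CPM in the WT mice and at 5.04, 5.30 and 2.23 CPM in the LKO mice. Its highest and lowest mouse were both LKO mice, and the log2 fold change was 0.37 ± 0.37 (adjusted p = 0.46).

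*Rnf43* and *Znrf3* encode the paired ubiquitin ligases that remove Frizzled and that are themselves Wnt targets. *Rnf43* was at 3.14, 7.31 and 9.27 CPM in the WT mice and at 4.91, 4.19 and 1.82 CPM in the LKO mice. The groups overlapped because WT mouse 1 was low, and the log2 fold change of −0.85 ± 0.46 did not pass the test (adjusted p = 0.17). *Znrf3* was at 4.22, 7.35 and 7.42 CPM in the WT mice and at 5.61, 5.71 and 7.22 CPM in the LKO mice. Its log2 fold change was −0.03 ± 0.25 (adjusted p = 0.93), and the 95% confidence interval of the fold ran from 0.654 to 1.46.

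The direction of most of these values depended on the scaling. With total counts, *Oat* (log2 fold change 1.33, adjusted p = 0.0014) and *Slc1a2* (0.59, adjusted p = 0.022) were still higher, whereas *Nkd1* was at 0.16 (adjusted p = 0.70). *Rnf43* (−1.71, adjusted p = 0.012) and *Znrf3* (−0.89, adjusted p = 0.025) were then lower. In that test 6.26% of all genes were called higher and 51.4% lower. On the log2(TPM + 1) scale, *Oat* alone of the 10 was called higher (0.68, adjusted p = 0.021 by limma), and 6 were called lower, *Glul* among them (−1.06, adjusted p = 0.0034). There 2.43% of all genes were called higher and 71.5% lower. Relative to the median of all genes, *Oat* was higher by 2.24, 2.23 and 1.47 with TMM, total counts and log2(TPM + 1), and *Slc1a2* by 1.49, 1.49 and 0.57. *Rnf43* was at −0.82, −0.81 and −0.51 relative to that median, and *Znrf3* at 0.01 on each of the 3 scales. *Glul* lay above the median by 0.48 and 0.49 with TMM and total counts but at −0.27 with log2(TPM + 1). With log2(TPM + 0.1), *Glul* lay above the median by 0.28, so its side of the median depended on the value added to TPM. *Oat* and *Slc1a2* lay further above the median, and *Rnf43* further below it, with log2(TPM + 0.1) than with log2(TPM + 1).

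**Figure D2:**
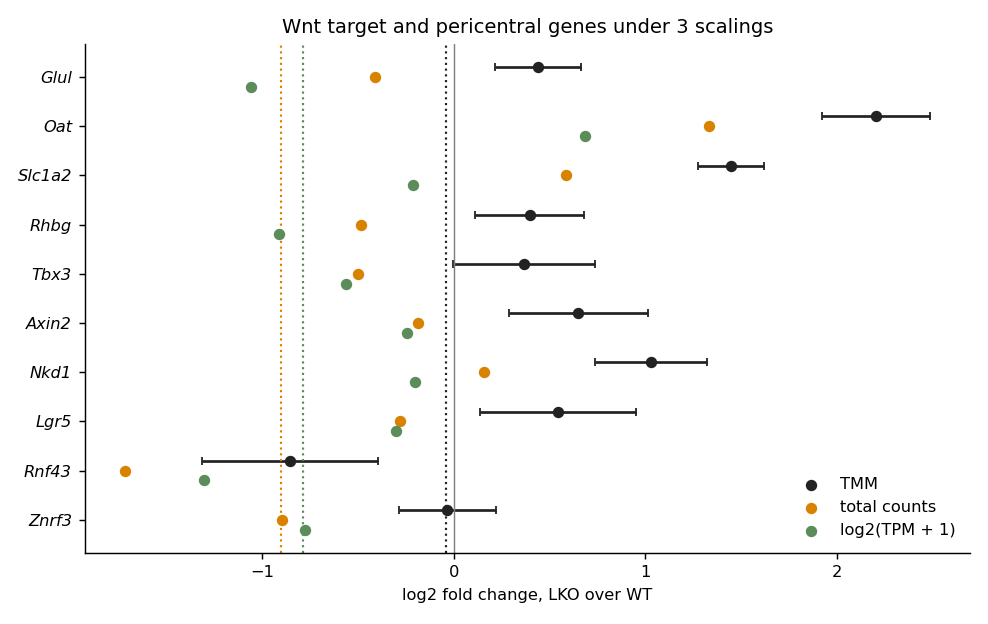
Log2 fold change of LKO over WT (x axis) for each of the 10 genes with TMM, total counts and log2(TPM + 1). Bars are standard errors of the TMM values, and dotted lines are the medians of all genes tested on each scale, at −0.04, −0.90 and −0.79. *Oat* lies to the right of 0 on all 3 scales.

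Ratios of counts between genes of the same library do not depend on scaling. All 45 ratios between the 10 genes were compared, and 16 did not overlap between WT and LKO mice. Among ratios of all pairs of genes tested, 50.9% did not overlap. The ratio of *Glul* to *Oat* was 0.820, 0.900 and 0.948 in the WT mice and 0.273, 0.218 and 0.309 in the LKO mice. These genes had similar counts in every WT mouse, and *Oat* had several times more than *Glul* in every LKO mouse. *Oat* was higher in the LKO mice, without overlap, relative to 8 of the other 9 genes, all but *Slc1a2*. The ratio of *Oat* to *Slc1a2* was 4.24, 1.95 and 2.76 in WT and 5.04, 6.10 and 3.72 in the LKO mice, with overlap. *Slc1a2* was higher without overlap relative to 5 of the other 9 genes, near the 50.9% of all pairs. Its ratio to *Znrf3* was 21.7, 14.7 and 16.8 in the WT mice and 48.9, 50.5 and 44.7 in the LKO mice. *Glul* was lower relative to *Oat* and *Slc1a2*, and its ratios to the other 7 genes overlapped.

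*Rnf43* was lower in the LKO mice, without overlap, relative to 5 of the other 9 genes, namely *Oat*, *Slc1a2*, *Axin2*, *Lgr5* and *Tbx3*, a share near the 50.9% of all pairs. The ratio of *Axin2* to *Rnf43* was 0.256, 0.157 and 0.166 in the WT mice and 0.514, 0.390 and 0.726 in the LKO mice. The ratio of *Rnf43* to its partner *Znrf3* was 0.743, 0.994 and 1.25 in the WT mice and 0.874, 0.734 and 0.251 in the LKO mice, and overlapped. The ratio of *Axin2* to *Lgr5* was 0.896, 0.789 and 0.586 in the WT mice and 0.804, 0.826 and 0.616 in the LKO mice, so these genes moved little relative to each other.

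**Figure D3:**
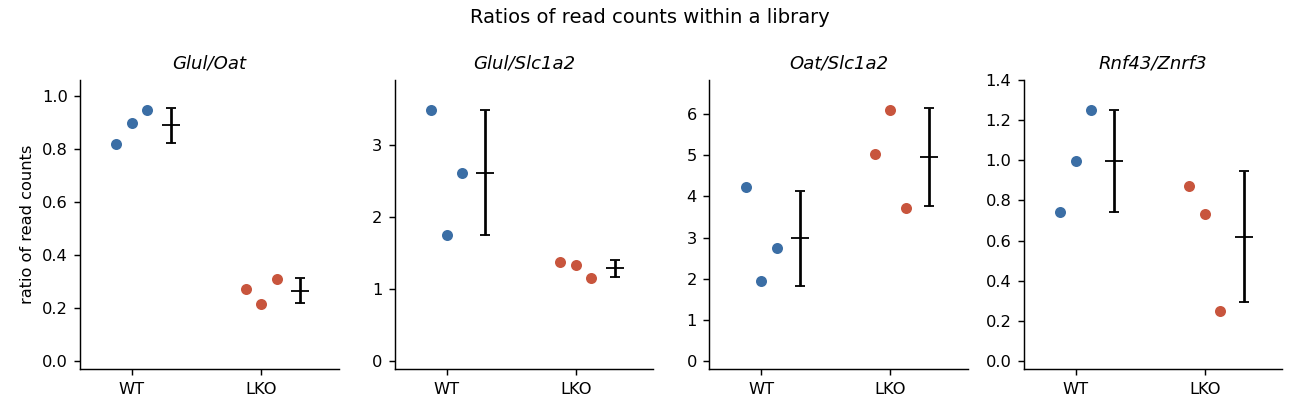
Ratios of read counts within a library (y axis, from 0) for 4 pairs of the genes in WT and LKO mice. Points are mice, and bars are the mean ± SD (n = 3). The ratios of *Glul* to *Oat* and of *Glul* to *Slc1a2* do not overlap, whereas those of *Oat* to *Slc1a2* and of *Rnf43* to *Znrf3* do.

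The spread between mice differed between the genes. Under TMM the coefficient of variation in the WT mice was 15.3% for *Slc1a2*, 27.6% for *Glul* and 29.4% for *Oat*, and reached 47.6% for *Rnf43* and 53.3% for *Lgr5*. In LKO mice it was 1.51% for *Glul* and 44.5% for *Rnf43*. WT mouse 2 was the lowest WT mouse for *Glul*, *Oat* and *Rhbg*. WT mouse 3 was the highest WT mouse for *Glul*, *Slc1a2*, *Axin2*, *Lgr5*, *Tbx3*, *Rnf43* and *Znrf3*, and LKO mouse 1 the highest LKO mouse for *Axin2* and *Lgr5*. By read count within a library, *Slc1a2* ranked at percentile 93.8 to 95.7 of the genes tested in the WT mice and 97.5 to 98.1 in the LKO mice, whereas *Glul* stayed between 97.7 and 98.6 in all 6 mice.

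The ligands were taken from a list of 14 Wnt ligands, R-spondins and secretion genes, of which 9 were tested. *Wnt2*, *Rspo3*, *Wnt9b* and *Wls* rose under TMM, and 1 gene of the list fell. Over all genes tested, 19.6% rose and 20.5% fell under TMM, the shares to set beside this list and those below. The median log2 fold change of the list was 0.94 with TMM and 0.06 with total counts. *Wnt2*, a ligand of liver endothelial cells, had 274, 227 and 193 counts in the WT mice and 427, 350 and 456 in the LKO mice. Its log2 fold change was 1.56 ± 0.17 with TMM (adjusted p = 0.00046) and 0.69 with total counts (adjusted p = 0.025), but −0.19 on the log2(TPM + 1) scale (adjusted p = 0.41 by limma). *Rspo3*, the R-spondin of the central vein, had 245, 204 and 155 counts in the WT mice and 394, 447 and 518 in the LKO mice. All LKO counts exceeded all WT counts, and the log2 fold change was 1.91 ± 0.22 with TMM (adjusted p = 0.00050) and 1.02 with total counts (adjusted p = 0.0054). On the log2(TPM + 1) scale *Rspo3* was at 0.27 and did not pass the test (adjusted p = 0.23 by limma).

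*Wnt9b*, the other central vein ligand, had 31, 15 and 20 counts in the WT mice and 30, 40 and 49 in the LKO mice. Its log2 fold change was 1.59 ± 0.39 with TMM (adjusted p = 0.012) and 0.72 with total counts (adjusted p = 0.14), and 0.0078 on the log2(TPM + 1) scale (adjusted p = 0.87 by limma). *Wls*, which carries Wnt proteins to the cell surface, had a log2 fold change of 0.94 ± 0.18 with TMM (adjusted p = 0.0042), 0.06 with total counts (adjusted p = 0.82) and −0.38 on the log2(TPM + 1) scale. *Wnt5a*, a ligand of beta-catenin independent signalling that was named after its values were seen, fell by 1.15 on the log2 scale with TMM (adjusted p = 0.033). This call was lost without WT mouse 1, WT mouse 2 or any 1 of the LKO mice (log2 fold changes −1.23 to −0.86, adjusted p = 0.063 to 0.12), and with the correction for gene length (−0.99, adjusted p = 0.058).

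Because these ligands come from endothelial cells and the endothelial markers moved as well, their counts were also taken per 1000 counts of the 10 endothelial markers in the same library. *Wnt2* was then at 10.8, 10.1 and 9.85 in the WT mice and 18.6, 19.8 and 18.3 in the LKO mice. *Rspo3* was at 9.68, 9.10 and 7.91 in the WT mice and 17.1, 25.3 and 20.7 in the LKO mice. *Wnt9b* was at 1.23, 0.669 and 1.02 in the WT mice and 1.30, 2.26 and 1.96 in the LKO mice. The genotypes did not overlap for any of these 3 genes, and the LKO mean was 1.84, 2.37 and 1.9 times the WT mean for *Wnt2*, *Rspo3* and *Wnt9b*. Among ratios of all pairs of genes tested, 50.9% did not overlap, a share for single genes and not for sums of 10 markers. Of the endothelial markers themselves, 8 of 10 rose under TMM, with log2 fold changes of 0.09 to 1.70 over the 10. *Lyve1* (1.70) and *Clec4g* (1.53) rose about as much as *Wnt2* (1.56) and *Wnt9b* (1.59), whereas *Kdr* (0.09) and *Stab2* (0.17) changed little. The values per marker count therefore depend on the markers summed, and a rise beyond that of the endothelial cells was not tested. Markers of other cell types, which also moved under TMM, were not used in this way.

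**Figure D4:**
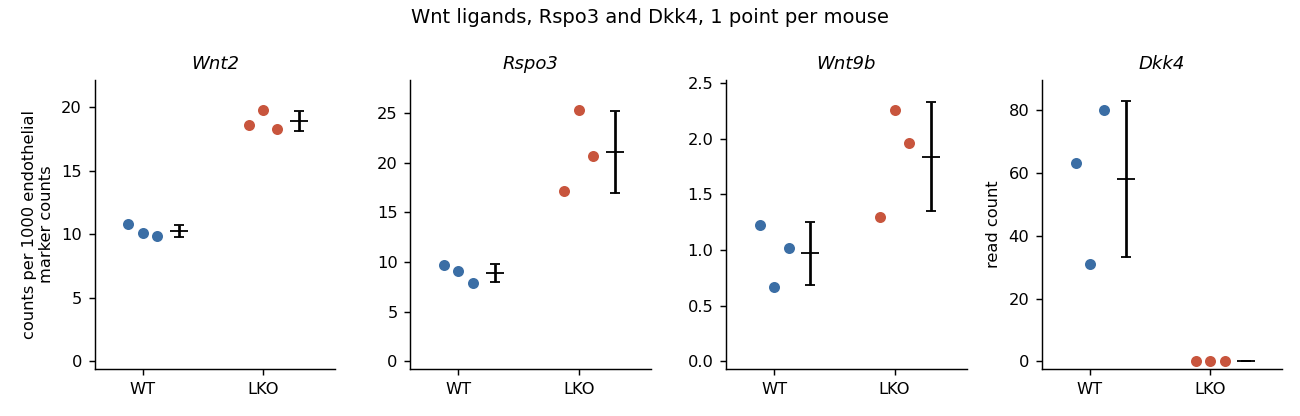
Counts of *Wnt2*, *Rspo3* and *Wnt9b* per 1000 counts of 10 endothelial markers, and read counts of *Dkk4* (y axes), in WT and LKO mice. Points are mice, and bars are the mean ± SD (n = 3). The 3 ligands lie higher in the LKO mice without overlap, and *Dkk4* is at 0 in all LKO mice.

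Of 14 receptors and co-receptors, 12 were tested and 1 rose. This was *Lgr4*, the R-spondin receptor related to *Lgr5*, with a log2 fold change of 0.55 ± 0.18 with TMM (adjusted p = 0.043) and −0.31 with total counts (adjusted p = 0.22). The call of *Lgr4* was lost without WT mouse 1, WT mouse 2, LKO mouse 2 or LKO mouse 3 (log2 fold changes 0.40 to 0.60, adjusted p = 0.065 to 0.15). The median of the list was 0.06, near that of all genes.

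Among 16 inhibitors, 8 were tested, and *Dkk3* and *Shisa2* rose while *Tmem131l* fell. *Dkk3*, a divergent member of the Dickkopf family, was at 1.5 ± 0.337 CPM among WT and 5.10 ± 2.16 CPM in the LKO mice, a log2 fold change of 1.76 ± 0.37 with TMM (adjusted p = 0.0062), 0.84 with total counts (adjusted p = 0.068) and 0.079 on the log2(TPM + 1) scale (adjusted p = 0.69 by limma). *Shisa2*, which retains Frizzled inside the cell and was named after its values were seen, was below 1 CPM in both groups on average, with a log2 fold change of 2.47 with TMM (adjusted p = 0.0076). *Tmem131l*, which lowers the LRP6 co-receptor, fell by 1.57 on the log2 scale with TMM (adjusted p = 0.0028) and by 2.42 with total counts (adjusted p = 0.00031).

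*Dkk4*, a secreted inhibitor of LRP co-receptors and a Wnt target, is at chr8:22623685-22628018. It had 63, 31 and 80 counts in the WT mice and 0, 0 and 0 counts in the LKO mice. Because it had more than 1 zero it was not among the 18636 genes tested, and it was named after its values were seen. Without the filter on low counts it was called lower (adjusted p = 0.00083 by the quasi-likelihood test over 25982 genes), where 15.2% of the genes were called lower. With edgeR's filterByExpr the adjusted p was 0.0012. A count of 0 allows up to 3 counts per library, so *Dkk4* was at least 11.5-fold lower in the LKO mice with TMM and at least 20.9-fold lower with total counts. Of the 13868 genes that had at least 31 counts in every WT mouse, 23 (0.166%) were at 0 in all LKO mice, and 4 genes showed the opposite pattern with the same minimum. The minimum of 31 is the lowest WT count of *Dkk4* itself, so this share describes the pattern and is not a test of it. The total counts of the LKO libraries were about as large as those of the WT libraries. The 10 genes with most counts held 30.6 to 36.3% of them in the LKO mice and 16.2 to 17.3% in the WT mice. This left a smaller share of the LKO counts for all other genes, and its part in the zeros of *Dkk4* was not tested.

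Inside the cell, 15 genes of the destruction complex and dishevelled were tested, of which 2 rose and 3 fell under TMM. *Csnk1a1*, the kinase that primes beta-catenin, had a log2 fold change of 0.75 ± 0.14 (adjusted p = 0.0038) and *Dvl1*, a dishevelled gene, of 0.61 ± 0.13 (adjusted p = 0.0061), but with total counts they were at −0.11 and −0.25. *Btrc*, which encodes the ligase adaptor for phosphorylated beta-catenin, fell by 1.03 on the log2 scale (adjusted p = 0.0071). Its relative *Fbxw11* fell by 0.58 (adjusted p = 0.020) and the casein kinase gene *Csnk1d* by 0.86 (adjusted p = 0.010). The call of *Fbxw11* was lost without WT mouse 1, WT mouse 3, LKO mouse 1 or LKO mouse 2 (log2 fold changes −0.60 to −0.47, adjusted p = 0.054 to 0.078). The median of the list was −0.28.

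*Ctnnb1*, which encodes beta-catenin, was at 199 ± 17.3 CPM among WT and 174 ± 21.5 CPM in the LKO mice (log2 fold change −0.19 ± 0.16, adjusted p = 0.38). *Tcf7l2*, the main TCF gene of the liver, was at 9.44 ± 2.81 and 8.54 ± 0.356 CPM (log2 fold change −0.14 ± 0.24, adjusted p = 0.66). With total counts both were lower, *Ctnnb1* by a log2 fold change of −1.05 (adjusted p = 0.0010) and *Tcf7l2* by −1.01 (adjusted p = 0.011), near the median of all genes on that scale. Of 12 nuclear genes tested, 0 rose at an adjusted p under 0.05 with the quasi-likelihood test, exactTest or DESeq2, and 1 was higher at an unadjusted p under 0.05. The co-factor gene *Pygo2* fell by 0.82 on the log2 scale (adjusted p = 0.0077), *Ctnnbip1*, an inhibitor of the contact between beta-catenin and TCF, by 1.07 (adjusted p = 0.034) and the remodeller gene *Chd8* by 0.63 (adjusted p = 0.014). The call of *Ctnnbip1* was lost without any 1 of the WT mice or LKO mouse 1 (log2 fold changes −1.14 to −0.97, adjusted p = 0.060 to 0.096), and that of *Chd8* without WT mouse 2 (−0.56, adjusted p = 0.051).

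Another 14 Wnt targets were listed, of which 9 were tested. *Ccnd1*, the cyclin D1 gene, fell by 0.68 on the log2 scale (adjusted p = 0.044), and this call was lost without any 1 of the WT mice, LKO mouse 1 or LKO mouse 2 (log2 fold changes −0.81 to −0.51, adjusted p = 0.054 to 0.15). The other 8 did not pass the test, with *Sp5*, a transcription factor gene, at a log2 fold change of 2.17 (adjusted p = 0.065) on under 1 CPM. The exactTest of edgeR and DESeq2 called *Sp5* higher (adjusted p = 0.025 and 0.043), and so did the quasi-likelihood test without WT mouse 3 (3.15, adjusted p = 0.040). The median of these targets was 0.01.

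Other zonated genes moved in both directions. Of 16 further pericentral genes, 4 rose and 2 fell under TMM, with a median log2 fold change of 0.21. Among all genes tested, 19.6% rose and 20.5% fell. *Cyp7a1*, the rate-limiting enzyme of bile acid synthesis, rose from 166 ± 24.5 to 725 ± 120 CPM (log2 fold change 2.12 ± 0.20, adjusted p = 0.00031). *Por*, the electron donor of cytochromes P450, was at a log2 fold change of 1.57 ± 0.35 (adjusted p = 0.0082), and the nuclear receptor gene *Nr1i3* and the aryl hydrocarbon receptor gene *Ahr* were at 1.08 and 0.97 (adjusted p = 0.024 and 0.0097). With total counts *Por*, *Nr1i3* and *Ahr* did not pass the test (adjusted p = 0.097, 0.56 and 0.72). *Cyp1a2*, a cytochrome of drug metabolism, fell by 1.54 on the log2 scale (adjusted p = 0.0044), and *Aldh3a2*, a fatty aldehyde dehydrogenase gene, by 0.85 (adjusted p = 0.049). *Cyp2e1*, the ethanol-oxidising cytochrome, had a log2 fold change of 0.50 ± 0.21 (adjusted p = 0.083). It was called higher with exactTest (0.50, adjusted p = 0.034) and DESeq2 (0.53, adjusted p = 0.0044), each of which called 6 of the 16 genes higher, but it was at −0.37 with total counts (adjusted p = 0.099) and at −1.04 on the log2(TPM + 1) scale (adjusted p = 0.0010 by limma). The call of *Nr1i3* was lost without WT mouse 1, WT mouse 2, LKO mouse 1 or LKO mouse 2 (log2 fold changes 0.81 to 1.02, adjusted p = 0.071 to 0.082). That of *Aldh3a2* was lost without WT mouse 1, WT mouse 3, LKO mouse 2 or LKO mouse 3 (−0.90 to −0.58, adjusted p = 0.099 to 0.19).

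Of 18 periportal genes, 8 rose and 5 fell under TMM, with a median log2 fold change of 0.56. The shares of all genes tested were 19.6% and 20.5%. *Arg1* and *Cps1* of the urea cycle rose with log2 fold changes of 2.21 ± 0.25 (adjusted p = 0.00049) and 1.71 ± 0.28 (adjusted p = 0.0021). *Arg1* was at 875 ± 130 CPM among WT and 4050 ± 764 CPM in the LKO mice. *Sdsl*, a serine dehydratase-like gene, was at 1.91 ± 0.26 (adjusted p = 0.00099) and *Etnppl*, a phosphoethanolamine lyase gene, at 1.85 ± 0.61 (adjusted p = 0.041). On the log2(TPM + 1) scale *Cps1* was at 0.15 (adjusted p = 0.58 by limma) and *Sdsl* at 0.32 (adjusted p = 0.31), so neither passed. *Etnppl* rested on LKO mouse 3, with 31228 counts against 7935 and 3389 in the other LKO mice, and without that mouse its log2 fold change was 0.66 (adjusted p = 0.073). Its call was also lost without WT mouse 1, 2 or 3 (adjusted p = 0.10, 0.12 and 0.095). *Cyp2f2*, a periportal cytochrome, fell by 2.04 on the log2 scale (adjusted p = 0.00031), *Aldh1b1*, a mitochondrial aldehyde dehydrogenase gene, by 1.70 (adjusted p = 0.0013), and *Cdh1*, the E-cadherin gene, by 1.03 (adjusted p = 0.0068). *Hsd17b6*, a steroid dehydrogenase gene, fell by 1.71 (adjusted p = 0.019), a call that was lost without WT mouse 2 (−1.54, adjusted p = 0.065) or LKO mouse 2 (−1.41, adjusted p = 0.062). Without LKO mouse 1, which had 2840 counts against 630 and 925 in the other LKO mice, the log2 fold change of *Hsd17b6* was −2.56 (adjusted p = 0.00053).

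The counts of both zonation lists shifted with the scaling. With total counts, 1 pericentral gene was called higher and 7 lower, and 4 periportal genes higher and 8 lower. On the log2(TPM + 1) scale, 1 and 11 of the pericentral and 1 and 9 of the periportal genes were called higher and lower. Over all genes tested, 6.26% were called higher and 51.4% lower with total counts, and 2.43% and 71.5% on the log2(TPM + 1) scale. *Cyp7a1* and *Arg1* were called higher on each of the 3 scales.

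**Figure D5:**
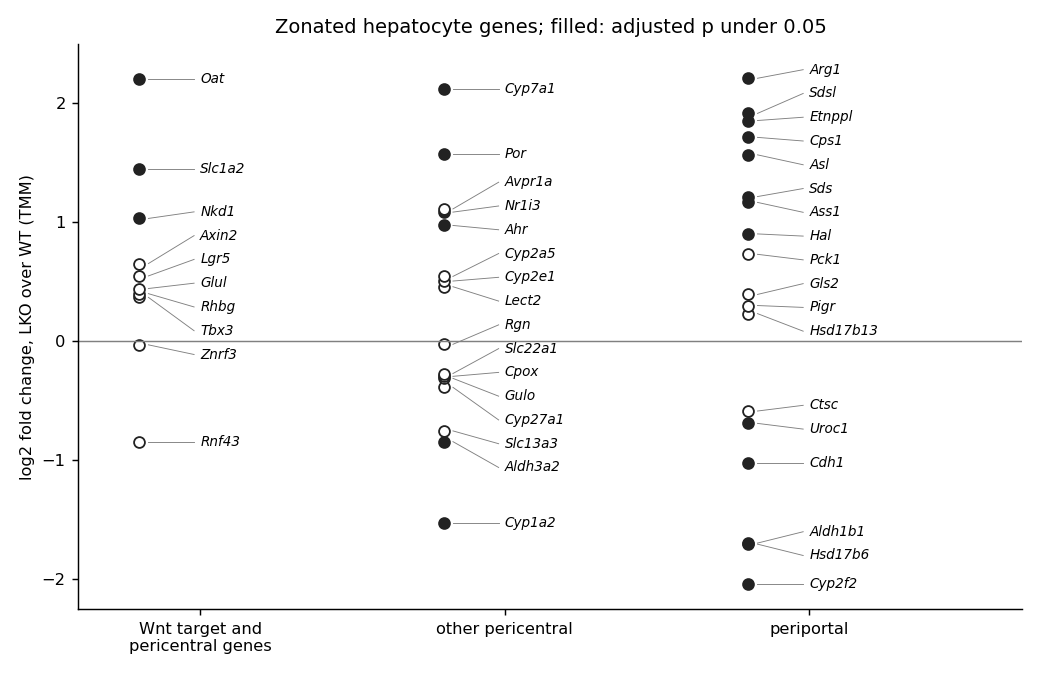
Log2 fold change of LKO over WT with TMM (y axis) for the 10 Wnt target and pericentral genes, 16 other pericentral genes and 18 periportal genes. Filled points passed the test (adjusted p under 0.05). Each list holds genes on both sides of 0, and *Oat*, *Cyp7a1* and *Arg1* lead their lists.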

How the data were processed

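Liver RNA of 3 WT and 3 LKO mice was sequenced, 1 library per mouse. The authors deposited whole read counts, FPKM and TPM for 45777 genes, estimated with StringTie on mm10. The submitters' processing notes also name HISAT2 2.1.0, Bowtie2 2.3.4.1 and StringTie 2.1.3b. The deposited counts were not normalized, the deposited FPKM were scaled by gene length and fragments sequenced, and the TPM were scaled by the authors to a common sum. FPKM entered only as a proxy for gene length (count over FPKM). The labels name an mRNA kit and the methods a total RNA kit with rRNA removal. The use of strand in counting was not given in the sources used here. Of the Entrez identifiers, 45679 matched RefSeq.

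The study's filter was kept, so a gene with zero counts in more than 1 of the 6 libraries was dropped. The other 18636 genes were tested in edgeR 4.0.16 by quasi-likelihood (two-sided, TMM, Benjamini-Hochberg over all genes tested, threshold 0.05). The alternatives were exactTest, DESeq2 1.42.0, its size factors, total counts, 3 other filters, protein-coding genes, a replicate block, a correction for gene length (lowess span 0.3), both, limma 3.58.1 on log2(TPM + 1) and log2(TPM + 0.1), and leaving out each mouse. An exact permutation test of 3 against 3 mice cannot go below p = 0.1, so levels and ratios were given without one. Nothing says which mice were littermates. Each p-value sets the difference between the groups against the variation estimated from these mice.

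The 10 genes and all lists were chosen with earlier results of these data known. Named are the 10 genes, *Pak4*, up to 4 rises and 4 falls per list among genes passing the test (mean CPM of 1 or more), and *Ctnnb1*, *Tcf7l2*, *Wnt2*, *Wnt9b*, *Rspo3* and *Cyp2e1*. *Wnt5a*, *Shisa2*, *Dkk4* and *Sp5* were added after their values were seen. Coordinates and promoters are from RefSeq on GRCm38.p6.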

Additional observations from a re-analysis of the deposited data

How the results depend on the processing

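Among the 10 genes, *Oat* kept its direction and its call under all 19 alternatives. The number called higher was 1 with log2(TPM + 1) and 1 with log2(TPM + 0.1), against 3, and 2 to 3 when 1 mouse was left out. The number called lower was 2 with total counts, 6 with log2(TPM + 1) and 5 with log2(TPM + 0.1), against 0. Over all genes, 3661 were called higher and 3815 lower. With total counts these were 1167 and 9575, with log2(TPM + 1) 453 and 13322, and with log2(TPM + 0.1) 467 and 13535. Leaving out 1 mouse gave 2796 to 3517 higher and 2855 to 3792 lower. The cause of the shift between scalings was not tested. Without a change of direction, the calls of *Nkd1*, *Wls*, *Wnt9b*, *Dkk3*, *Por*, *Nr1i3*, *Ahr* and *Etnppl* were lost with total counts, those of *Rspo3*, *Wnt9b*, *Dkk3*, *Shisa2*, *Sdsl* and *Cps1* on both TPM scales, and those of *Wnt5a*, *Fbxw11*, *Ccnd1* and *Aldh3a2* with the length correction. *Etnppl* lost its call with DESeq2, *Aldh3a2* with DESeq2 size factors, filterByExpr and protein-coding genes, *Ccnd1* with protein-coding genes and *Lgr4* without a filter. *Cyp2e1* gained a call with exactTest, DESeq2, filterByExpr and protein-coding genes.

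With total counts, log2 fold changes turned negative for *Glul* (−0.41), *Rhbg* (−0.48), *Axin2* (−0.19), *Lgr5* (−0.28), *Tbx3* (−0.50), *Lgr4* (−0.31), *Csnk1a1* (−0.11), *Dvl1* (−0.25) and *Cyp2e1* (−0.37). On the log2(TPM + 1) and log2(TPM + 0.1) scales they turned negative for *Glul* (−1.06 and −1.06), *Slc1a2* (−0.21 and −0.22), *Rhbg* (−0.91 and −1.11), *Axin2* (−0.24 and −0.71), *Lgr5* (−0.30 and −0.74), *Tbx3* (−0.56 and −1.11), *Nkd1* (−0.20 and −0.59), *Wnt2* (−0.19 and −0.27), *Wls* (−0.38 and −0.53), *Lgr4* (−0.95 and −0.996), *Csnk1a1* (−0.58 and −0.60), *Dvl1* (−0.86 and −0.93), *Por* (−0.063 and −0.066), *Nr1i3* (−0.52 and −0.54), *Ahr* (−0.51 and −0.57), *Etnppl* (−0.15 and −0.17) and *Cyp2e1* (−1.04 and −1.05). *Znrf3*, near 0, turned positive with filterByExpr (0.0004), protein-coding genes (0.031), the length correction (0.14) and without single mice (−0.25 to 0.10). *Tcf7l2* was at 0.028 with the length correction and −0.36 to 0.014 without single mice.

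With the replicate number as a block, the log2 fold change was 2.23 for *Oat* (adjusted p = 0.0041), 1.46 for *Slc1a2* (0.0025), 1.05 for *Nkd1* (0.051) and 0.0009 for *Znrf3*, and with the block and the length correction 0.17 for *Znrf3* and 0.063 for *Tcf7l2*. The block gave 3129 genes higher and 3302 lower, and the calls of *Nkd1*, *Wnt5a* (adjusted p = 0.055), *Nr1i3* and *Etnppl* were lost. With the block and the length correction, those of *Wnt5a*, *Fbxw11*, *Chd8* and *Nr1i3* were lost. Deviations of same-numbered mice from their group means correlated at 0.05, −0.03 and −0.08. Mice with different numbers were not compared, so these values do not settle whether the numbers pair the mice.

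*Nkd1*, *Axin2* and *Wnt9b* rest on 111 counts or fewer per library, which limits their precision, and the depth cannot tell 0 from up to 3 counts of *Dkk4*.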
